A study of Homo sapiens with 6 samples.

Results

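The genes of the BCL2 family that decide whether a cell keeps or loses the integrity of its mitochondria were followed in HK-2 cells with and without overexpression of *PPM1K*. They were the 10 genes whose symbols were *BCL2*, *BCL2L1*, *MCL1*, *BAX*, *BAK1*, *BCL2L11*, *BBC3*, *PMAIP1*, *BID* and *BAD*, out of 31369 genes in the count table and 30896 in the FPKM table, and all 10 were found in both. FPKM is the number of fragments scaled to transcript length and to sample depth, and is the scale on which levels of different genes are compared here. HK-2 is an immortalised, established cell line from the proximal tubule of the human kidney, and PPM1K is the mitochondrial phosphatase that activates the enzyme complex for branched-chain amino acid breakdown. RNA was sequenced from 3 samples of the control group (NC), whose genotype entry is WT, and from 3 samples of the overexpression group (OE), whose genotype entry is PPM1K overexpress and which received a *PPM1K* plasmid by lipofection. What the NC cells received was not stated in the sources used here. All 6 samples carry the time entry Day 10 and the treatment entry Chronic kidney disease, for which no treatment is described. The titles name shControl and shPPM1K, which goes against the genotype entries and the plasmid, and the groups were taken from the genotype. The cell line entry also differs between samples, with a number that counts up from HK-2, while the cell type entry is HK-2 throughout, and all were taken as HK-2. The study speaks of biological replication without describing separate cultures, so the p-values measure the spread between these samples, which may be technical.

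Proteins of the BCL2 family meet at the outer mitochondrial membrane. Anti-apoptotic members such as BCL2, BCL-XL and MCL1 hold the effectors BAX and BAK in check, and BH3-only proteins such as BIM, PUMA, NOXA, BID and BAD bind the anti-apoptotic members or act on the effectors directly. When the effectors form pores, cytochrome c leaves the mitochondria and caspases are activated, a course by which injured tubule cells are known to die. Much of this balance is set on the protein, by cleavage, phosphorylation, degradation and binding, which RNA levels do not show.

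The starts of 4 of the genes are shown because they hold, between them, the gene with the largest rise, the most abundant gene, the promoter with the most E-boxes and a gene that fell. Each sequence is a RefSeq promoter on GRCh38.p14, 250 bases before a start given by RefSeq and 50 bases from it. It is written from 5′ to 3′ on the strand of the gene. The RefSeq starts can differ from the gene bounds given below, which come from another annotation. The *BID* window shown lies wholly inside those bounds of *BID*. Capitals mark TGACG, the core letters of a cAMP response element, and CACGTG, an E-box, on either strand. The *PMAIP1* window is chr18:59899746-59900045 on the plus strand, the first of 2 *BCL2L1* windows is chr20:31723914-31724213 on the minus strand, the *BAX* window is chr19:48954625-48954924 on the plus strand and the first of 5 *BID* windows is chr22:17774420-17774719 on the minus strand.
PMAIP1: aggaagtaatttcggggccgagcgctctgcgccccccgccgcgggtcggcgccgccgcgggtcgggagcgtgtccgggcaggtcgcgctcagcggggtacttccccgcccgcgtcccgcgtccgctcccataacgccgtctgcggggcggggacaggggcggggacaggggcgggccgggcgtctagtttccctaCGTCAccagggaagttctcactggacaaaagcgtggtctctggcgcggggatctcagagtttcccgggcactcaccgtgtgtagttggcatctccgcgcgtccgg
BCL2L1: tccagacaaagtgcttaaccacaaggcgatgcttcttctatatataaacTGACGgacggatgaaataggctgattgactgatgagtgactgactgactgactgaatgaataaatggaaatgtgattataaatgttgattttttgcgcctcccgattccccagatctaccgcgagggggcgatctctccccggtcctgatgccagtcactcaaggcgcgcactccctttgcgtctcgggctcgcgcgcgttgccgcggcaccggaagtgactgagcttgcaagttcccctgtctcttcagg
BAX: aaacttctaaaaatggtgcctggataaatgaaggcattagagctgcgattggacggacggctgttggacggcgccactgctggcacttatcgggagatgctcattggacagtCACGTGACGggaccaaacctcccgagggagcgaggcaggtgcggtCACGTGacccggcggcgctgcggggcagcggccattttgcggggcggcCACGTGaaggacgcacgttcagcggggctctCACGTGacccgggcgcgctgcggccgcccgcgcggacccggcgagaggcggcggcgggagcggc
BID: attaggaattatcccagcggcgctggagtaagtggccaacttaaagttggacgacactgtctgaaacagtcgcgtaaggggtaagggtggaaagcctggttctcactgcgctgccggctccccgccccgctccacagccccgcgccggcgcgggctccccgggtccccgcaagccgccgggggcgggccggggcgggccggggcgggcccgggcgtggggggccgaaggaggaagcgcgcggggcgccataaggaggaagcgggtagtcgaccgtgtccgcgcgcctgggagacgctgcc

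A RefSeq promoter was matched for 9 of the 10 genes, with 15 windows in all, and for *MCL1* none was matched. Below, a gene counts if any of its windows holds the motif, while the promoters compared with are counted window by window. The shares by gene and by window are thus unlike measures, since more windows per gene give more places for a match. TGACG was present in a window of 5 of the 9, namely *BCL2*, *BCL2L1*, *BAX*, *PMAIP1* and *BAD*, and in 24.6% of 35116 promoters of the same length. It was present in promoters of genes that rose, of a gene that fell and of a gene that passed no threshold. CACGTG was present in 3 of the 9, *BAX*, *BBC3* and *BID*, and in 7.26% of all promoters. The *BAX* window held 4 of them, and its TGACG overlaps the first as the run CACGTGACG, while the *BID* window above held neither motif and 2 of the other *BID* windows held 1 CACGTG each. CCAAT was present in 5 of the 9 (*BAX*, *BAK1*, *BCL2L11*, *BBC3* and *BAD*) and in 34.6% of all promoters. TGATGNAA, the core letters of a CCAAT-enhancer and ATF response element, was present in 0 of the 9 and in 3.62% of all promoters. These are matches of letters in short windows and say nothing about which factors bind there.

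Libraries held 34635770 to 36116963 counts in NC and 36033404 to 39850802 in OE. The targeted gene *PPM1K* had 37, 19 and 53 counts in the NC samples and 3294, 3531 and 2919 in the OE samples, a log2 fold change of 6.39 (SE 0.13, adjusted p = 1.1e-18, edgeR), so the counts follow the genotype entries and not the titles. NC replicate 2 stood apart, with 3551 genes counted in that sample alone against 449 to 766 in the other samples. Of the epithelial markers, 5 of 6 had an FPKM of at least 1 in every sample, as had 2 of 3 renal markers. Of 7 markers of proximal tubule function, 6 had an FPKM and 0 reached 1 in every sample, with *CUBN* and *AQP1* under 0.1 throughout, while *LRP2* was analysed by counts alone, with at most 1 count in a sample. Summed epithelial markers were at 777 to 872 FPKM in NC and 668 to 726 in OE. Of 15 markers of other cell types, 13 had an FPKM, of which 0 reached 1 in every sample and 7 were under 0.1 throughout, and their sum was 2.10 to 2.35 in NC and 1.56 to 1.66 in OE. Within it *COL1A1* was at 1.23 to 1.44 in NC and 0.63 to 0.72 in OE, whereas the 3 endothelial markers summed to 0.52 to 0.69 in NC and 0.73 to 0.87 in OE. The part of the marker shifts in the values below was not tested.

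Of the BCL2 family genes, 5 rose with *PPM1K* overexpression, 2 fell and 3 passed no threshold, all by changes of under 2-fold. *BCL2L1*, *BAX*, *BAK1*, *BBC3* and *PMAIP1* were higher in OE, and *BID* and *BAD* were lower. The gene with the largest change was *PMAIP1*, at 1.66 times its NC level. All 10 passed the filter on low counts and were tested with 15878 genes with edgeR (quasi-likelihood), and p-values were adjusted over all of them by Benjamini-Hochberg. Among all tested genes, 24.9% were higher and 23.7% were lower at an adjusted p under 0.05. The 7 of 10 genes past that threshold thus compare with 7715 of the 15878 tested genes in either direction. With a fold change above 2 or below 0.5 also required, which 5.51% of the tested genes met, 0 of the 10 were called by edgeR, and 7 had an unadjusted p under 0.05, as had 8655 of the 15878 tested genes. DESeq2 and limma on log2(FPKM + 1) likewise called 0 of the 10. CPM is the count scaled to normalized library size. In CPM, the samples of the groups lay apart for 7 of the 10 genes, against 55.3% of all tested genes. The median log2 fold change of the 10 was 0.19, with a range from −0.50 to 0.73, beside −0.0032 over all tested genes, and the median absolute change was 0.38 beside 0.27. In bulk RNA, more cells with a transcript and more RNA per cell cannot be told apart.

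**Figure D1:**
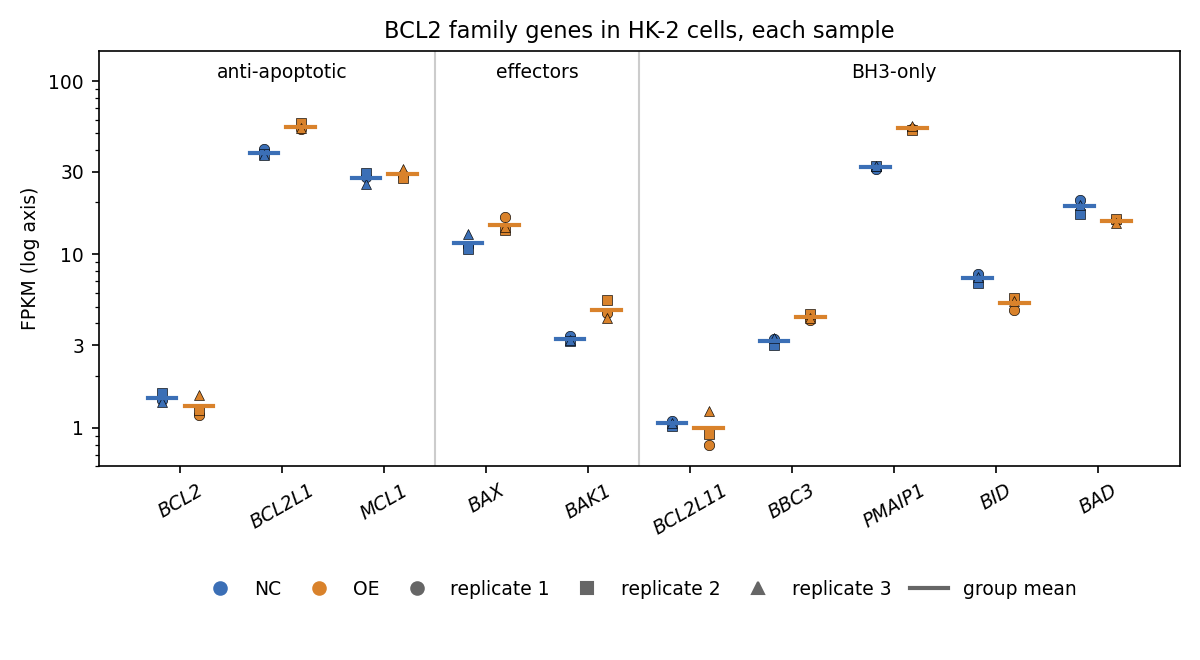
Deposited FPKM (log axis) of the 10 BCL2 family genes in each NC and OE sample, with the group mean as a bar and the replicate as the symbol. *PMAIP1* and *BCL2L1* stand highest in both groups and higher in OE, and the OE samples of *MCL1*, *BCL2* and *BCL2L11* overlap the NC samples.

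**Figure D2:**
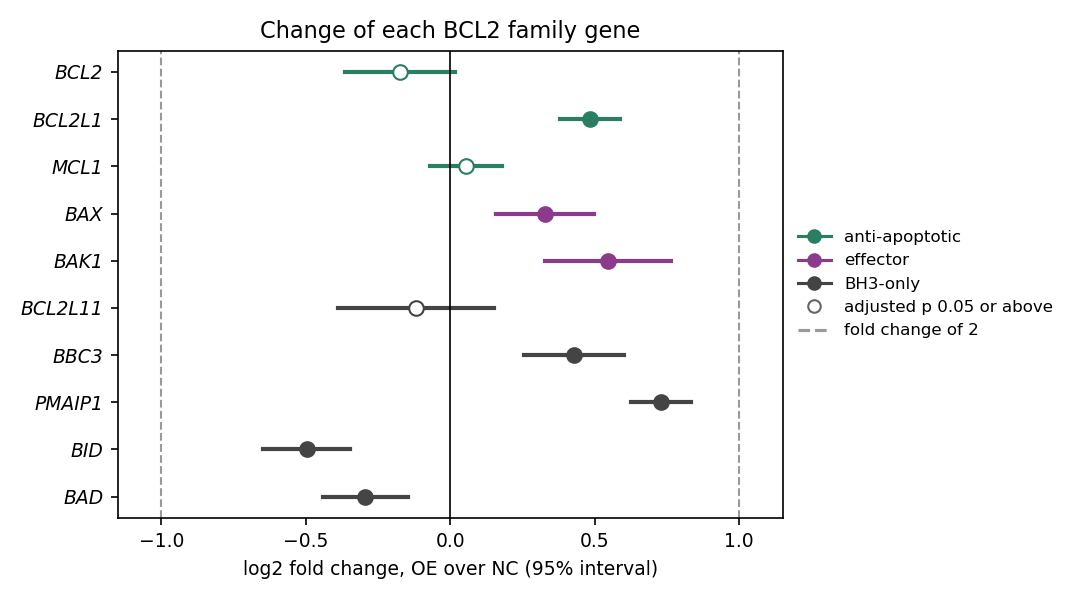
Log2 fold change of OE over NC for each gene, fitted by edgeR, with its 95% interval. Filled points are past an adjusted p of 0.05, open points are not, and none of the 10 reaches the dashed lines at a fold change of 2.

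Among the anti-apoptotic genes, *BCL2L1* rose, while the intervals of *BCL2* and *MCL1* included no change. The median log2 fold change of the 3 was 0.05. *BCL2L1* (ENSG00000171552.14, chr20:31664452-31723989 on the minus strand) encodes BCL-XL, which binds effectors and BH3-only proteins, and its pro-apoptotic short splice form, which a count per gene does not separate. By replicate number from 1 to 3, as in all values below, its FPKM was 40.38, 37.80 and 37.57 in NC against 52.95, 57.28 and 53.98 in OE. Every OE sample was above every NC sample. The log2 fold change was 0.48 (SE 0.05, 95% interval 0.38 to 0.59, adjusted p = 8.5e-08, edgeR), or 1.40 times the NC level. Its antisense partner *ABALON* reached at most 14 counts in any sample.

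*MCL1* (ENSG00000143384.14, chr1:150560895-150579738 on the minus strand) encodes the short-lived anti-apoptotic protein that NOXA binds. Its FPKM was 27.85, 29.66 and 25.55 in NC and 28.62, 27.50 and 31.35 in OE. The groups overlapped, with NC replicate 2 above OE replicates 1 and 2. Its fitted log2 change was 0.05 (SE 0.06, 95% interval −0.07 to 0.18, adjusted p = 0.48, edgeR), with the upper bound at 1.13 times the NC level. Other genes that overlap it reached at most 43 counts.

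*BCL2* (ENSG00000171791.14, chr18:63123346-63320128 on the minus strand), the founding anti-apoptotic gene, was expressed at a low level. Its FPKM was 1.45, 1.58 and 1.40 in NC and 1.19, 1.26 and 1.55 in OE, from 600 to 771 counts per sample. OE replicates 1 and 2 were below all NC samples and OE replicate 3 was above 2 of them. Its fitted log2 change was −0.17 (SE 0.09, 95% interval −0.36 to 0.02, adjusted p = 0.12, edgeR). Without OE replicate 3 it was −0.29 (adjusted p = 0.0055, edgeR), so 1 sample decides whether *BCL2* passes the threshold.

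Both effector genes rose, with a median log2 fold change of 0.44. *BAX* (ENSG00000087088.20, chr19:48954815-48961798 on the plus strand) encodes the effector that moves from the cytosol to the mitochondria, and no annotated gene overlaps it. Its FPKM was 11.17, 10.81 and 13.13 in NC and 16.53, 13.81 and 14.32 in OE. The groups did not overlap, with NC replicate 3 and OE replicate 2 lying closest. The log2 fold change was 0.33 (SE 0.08, 95% interval 0.16 to 0.50, adjusted p = 0.0022, edgeR), or 1.25 times the NC level. On log2(FPKM + 1) without a filter, limma gave 0.32 with an adjusted p of 0.061, the single alternative under which *BAX* was not past the adjusted p threshold.

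*BAK1* (ENSG00000030110.13, chr6:33572547-33580293 on the minus strand) encodes BAK, the effector that resides in the outer mitochondrial membrane. Its FPKM was 3.37, 3.15 and 3.23 in NC and 4.62, 5.48 and 4.30 in OE, with OE replicate 2 the highest. All OE samples were above all NC samples, and the SD was 0.111 in NC and 0.610 in OE (n = 3 each). On the log2 scale the change was 0.55 (SE 0.10, 95% interval 0.33 to 0.76, adjusted p = 0.00019, edgeR), or 1.46 times the NC level. *BAX* stood above *BAK1* in every sample, with a *BAX* to *BAK1* ratio of FPKM of 3.60 ± 0.404 in NC and 3.14 ± 0.553 in OE (SD, n = 3).

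The BH3-only genes moved in both directions, 2 of 5 up and 2 of 5 down, with a median log2 fold change of −0.12. That median is the value of *BCL2L11*, whose direction rests on single samples, as given below. *PMAIP1* (ENSG00000141682.12, chr18:59899996-59904305 on the plus strand) encodes NOXA, which binds MCL1 and marks it for degradation. Its FPKM was 30.96, 32.37 and 32.29 in NC and 52.89, 52.48 and 55.48 in OE, from 2527 to 2749 counts in NC and 4640 to 4847 in OE. The gap between the groups was far wider than the spread within them, whose SD was 0.792 in NC and 1.63 in OE (n = 3 each). The log2 fold change was 0.73 (SE 0.05, 95% interval 0.62 to 0.83, adjusted p = 2.0e-10, edgeR), which placed *PMAIP1* at rank 234 of the 15878 tested genes by p. No annotated gene overlaps it.

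*BBC3* (ENSG00000105327.18, chr19:47220822-47232766 on the minus strand) encodes PUMA, which binds all the anti-apoptotic members. Its FPKM was 3.25, 3.01 and 3.30 in NC and 4.20, 4.53 and 4.31 in OE. The OE samples were all above the NC samples, and the log2 fold change was 0.43 (SE 0.08, 95% interval 0.26 to 0.60, adjusted p = 0.00022, edgeR).

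*BID* (ENSG00000015475.19, chr22:17734138-17774770 on the minus strand) encodes the BH3-only protein that caspase-8 cleaves, which links death receptors to mitochondria. Its FPKM was 7.73, 6.86 and 7.42 in NC and 4.79, 5.61 and 5.42 in OE. Every OE sample was below every NC sample, and the log2 fold change was −0.50 (SE 0.07, 95% interval −0.65 to −0.35, adjusted p = 8.3e-06, edgeR), or 0.709 times the NC level.

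*BAD* (ENSG00000002330.14, chr11:64269830-64284704 on the minus strand) encodes the BH3-only protein that survival kinases phosphorylate and 14-3-3 proteins then hold in the cytosol. Its FPKM was 20.54, 17.11 and 19.33 in NC and 15.83, 16.03 and 15.24 in OE. The groups did not overlap, and NC replicate 2 lay nearest to the OE samples. On the log2 scale the change was −0.29 (SE 0.07, 95% interval −0.44 to −0.14, adjusted p = 0.0019, edgeR). *GPR137*, which overlaps *BAD* on the other strand, had 174 to 233 counts where *BAD* had 999 to 1310, and its log2 fold change was −0.08 (adjusted p = 0.63, edgeR).

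*BCL2L11* (ENSG00000153094.24, chr2:111119378-111168444 on the plus strand) encodes BIM, which binds all the anti-apoptotic members and activates the effectors. Its FPKM was 1.10, 1.02 and 1.06 in NC and 0.80, 0.92 and 1.25 in OE. OE replicates 1 and 2 were below the NC samples and OE replicate 3 was above them. The log2 fold change was −0.12 (SE 0.13, 95% interval −0.39 to 0.15, adjusted p = 0.47, edgeR). Without OE replicate 3 it was −0.31 (adjusted p = 0.039, edgeR) and without OE replicate 1 it was 0.0064 (adjusted p = 0.97, edgeR), so its direction rests on single samples. The antisense gene *MIR4435-2HG* lies over it with 1269 to 1821 counts and rose by a log2 fold change of 0.33 (adjusted p = 0.0001, edgeR). Since the strand setting of the counting was not given in the sources used here, the *BCL2L11* counts are uncertain.

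Each of the 7 genes that passed the threshold gave an exact two-sided permutation p of 0.1 on FPKM, the smallest that 3 samples against 3 allow. The exact permutation p was 0.3 for *BCL2*, 0.5 for *MCL1* and 0.7 for *BCL2L11*.

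The order of the FPKM levels was the same in both groups. In NC it ran from *BCL2L1* at 38.6 ± 1.56 (SD, n = 3) through *PMAIP1* at 31.9 ± 0.792, *MCL1* at 27.7 ± 2.06, *BAD* at 19.0 ± 1.74, *BAX* at 11.7 ± 1.25 and *BID* at 7.34 ± 0.441 to *BAK1* at 3.25 ± 0.111, *BBC3* at 3.19 ± 0.155, *BCL2* at 1.48 ± 0.0929 and *BCL2L11* at 1.06 ± 0.0400. *BAK1* and *BBC3* were the only neighbours in that order whose NC samples overlapped, and leaving out NC replicate 2 did not alter this. From *MCL1* to *BAD* the ratio of mean FPKM was 1.46 in NC and 1.86 in OE, and from *BBC3* to *BCL2* it was 2.16 and 3.26. From *BCL2L1* to *PMAIP1* it was 1.21 in NC and 1.02 in OE, and from *BID* to *BAK1* it was 2.26 and 1.10, so some steps were wider in OE and others narrower. In OE more neighbours overlapped. *BCL2L1* at 54.7 ± 2.26 and *PMAIP1* at 53.6 ± 1.63 overlapped, as did *BAD* at 15.7 ± 0.411 and *BAX* at 14.9 ± 1.45. *MCL1* stood apart from its neighbours at 29.2 ± 1.98. *BID* at 5.27 ± 0.429, *BAK1* at 4.80 ± 0.610 and *BBC3* at 4.35 ± 0.168 overlapped each with the next, and so did *BCL2* at 1.33 ± 0.191 and *BCL2L11* at 0.990 ± 0.233.

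Summed by role, all 3 classes stood higher in OE while their shares of the total barely moved, although most BH3-only genes had lower means. These sums describe the FPKM values already given and were not tested. The anti-apoptotic sum was 67.7 ± 2.81 in NC and 85.2 ± 2.18 in OE, the effector sum 15.0 ± 1.25 and 19.7 ± 1.31, and the BH3-only sum 62.5 ± 1.80 and 79.9 ± 1.62 (SD, n = 3). BH3-only genes made up 43.0% of the summed FPKM in NC and 43.2% in OE, and the ratio of BH3-only to anti-apoptotic FPKM was 0.874 to 0.983 in NC and 0.925 to 0.949 in OE, which overlapped. Within the classes the make-up shifted. Mean FPKM of *PMAIP1* went from 31.9 in NC to 53.6 in OE and that of *BBC3* from 3.19 to 4.35. The other BH3-only genes had lower means in OE. *BAD* went from 19.0 to 15.7, *BID* from 7.34 to 5.27 and *BCL2L11*, whose groups overlapped, from 1.06 to 0.990. Among the anti-apoptotic genes, *BCL2L1* went from 38.6 to 54.7, *MCL1* from 27.7 to 29.2 and *BCL2* from 1.48 to 1.33. The groups overlapped for *MCL1* and *BCL2*. *PMAIP1* rose from 51.1% to 67.1% of the BH3-only sum, with no overlap between the groups, and *BCL2L1* from 57.0% to 64.2% of the anti-apoptotic sum.

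The ratio of *PMAIP1* to *MCL1*, the RNAs of NOXA and of the protein it binds, was 1.11, 1.09 and 1.26 in the NC samples and 1.85, 1.91 and 1.77 in the OE samples. The groups lay apart. The ratio of *BCL2L1* to *MCL1* was 1.45, 1.27 and 1.47 in NC and 1.85, 2.08 and 1.72 in OE, also without overlap. The ratio of *BAX* to *BCL2*, often read as an index of apoptotic readiness, was 7.70, 6.84 and 9.38 in NC and 13.9, 10.96 and 9.24 in OE. Here OE replicate 3 fell below NC replicate 3, so the groups overlapped. Measured against *BCL2L1*, the more abundant anti-apoptotic RNA, *BAX* was at 0.304 ± 0.0396 in NC and 0.273 ± 0.0361 in OE (SD, n = 3), a difference of less than 1 SD.

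**Figure D3:**
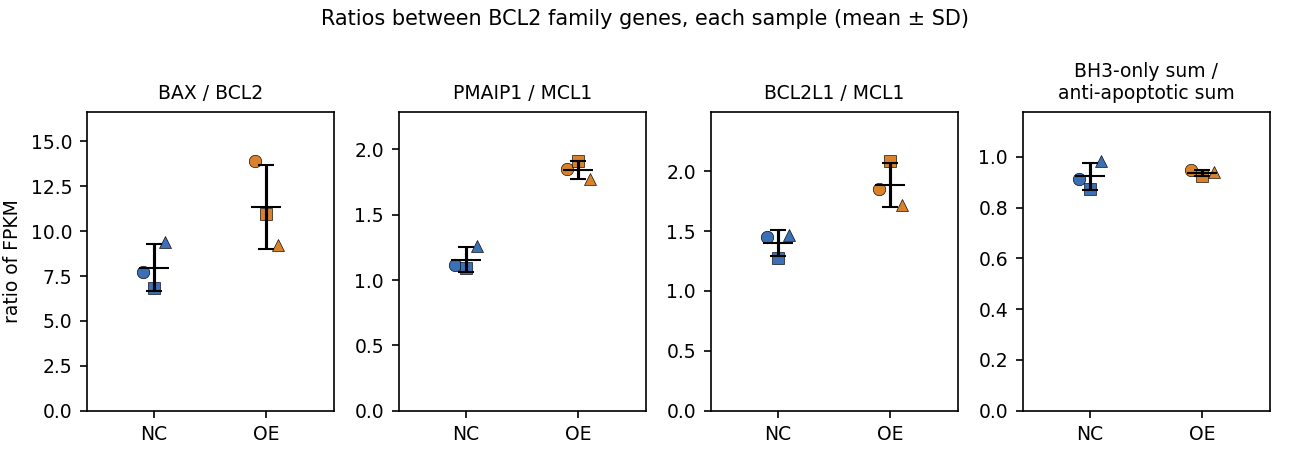
Ratios of deposited FPKM in each sample, with the mean and SD of 3 samples per group. *PMAIP1* over *MCL1* and *BCL2L1* over *MCL1* separate NC from OE, whereas *BAX* over *BCL2* and the ratio of the BH3-only sum to the anti-apoptotic sum overlap.

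Other genes of the family were measured beside the 10. Of 13 further BCL2 family genes, 10 were tested, of which 3 rose, 3 fell and 4 did neither, with a median log2 fold change of −0.06. Among those that rose, *BCL2L2* has uncertain counts, since *BCL2L2-PABPN1* lies over it on the same strand with up to 6989 counts. *BMF*, a BH3-only gene whose protein is tied to the cytoskeleton, fell most among the well-counted ones, with an FPKM of 4.81, 4.28 and 4.74 in NC and 2.05, 1.91 and 2.08 in OE. The 2 groups lay far apart, and its log2 fold change was −1.22 (adjusted p = 6.9e-11, edgeR). *BCL2L15* fell by 1.48 on the log2 scale (adjusted p = 0.0017, edgeR), but at an FPKM of at most 0.09 in any sample. *HRK*, a BH3-only gene best known in neurons, had an FPKM of 1.71, 1.64 and 1.48 in NC and 2.55, 2.70 and 2.60 in OE, and rose by 0.68 (adjusted p = 6.5e-07, edgeR). *BCL2L13*, a BCL2-like protein of the outer membrane with a part in mitophagy, rose by 0.40 (adjusted p = 4.2e-06, edgeR), and the BAX-like gene *BOK* fell by 0.34 (adjusted p = 0.00019, edgeR). The BH3-only genes inside and outside the 10 thus held the largest rise and the largest well-counted fall among the tested family genes.

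Downstream of the pores, 10 genes were tested for proteins released from mitochondria, for the apoptosome and for the outer membrane channels. Of these, 2 rose, 3 fell and 5 did neither, with a median of −0.10. Among the 5, *DIABLO* had only 20 to 35 counts, and a gene on its own strand overlaps it with up to 4906. The level of *DIABLO* is thus uncertain. *CYCS*, which encodes cytochrome c, had an FPKM of 37.76 to 38.73 in NC and 49.97 to 51.89 in OE and rose by 0.38 (adjusted p = 8.2e-07, edgeR). *APAF1*, the scaffold on which cytochrome c assembles the apoptosome, was at 1.79 to 1.92 in NC and 0.81 to 1.2 in OE and fell by 0.93 (adjusted p = 3.5e-07, edgeR). Cytochrome c RNA and the RNA of its partner therefore moved in opposite directions. *HTRA2*, a released protease that blocks caspase inhibitors, rose by 0.31 (adjusted p = 0.036, edgeR) with overlapping FPKM and uncertain counts, since *AUP1* lies over it on the other strand with up to 4772 counts, and *VDAC3*, a channel of the outer membrane, fell by 0.30 (adjusted p = 0.00011, edgeR). The count of 5 genes past the threshold was 3 without NC replicate 2, without NC replicate 3 or without OE replicate 2.

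Of 6 other caspases, all tested, 1 rose, 3 fell and 2 did neither, with a median of −0.17. The initiator *CASP8*, which cleaves BID, rose by 0.22 (adjusted p = 0.003, edgeR), whereas *CASP6*, an executioner that *MCUB* overlaps on the other strand with up to 946 counts, fell by 0.40 (adjusted p = 0.00028, edgeR) and the initiator *CASP10* fell by 0.59 (adjusted p = 0.00055, edgeR). Of 8 inhibitor of apoptosis genes, 6 were tested, of which 1 rose, 2 fell and 3 did neither, with a median of 0.05, and *BIRC8* was not analysed here. *BIRC7*, which encodes livin, went from an FPKM of 6.41 to 7.27 in NC to 2.56 to 3.01 in OE and fell by 1.29 (adjusted p = 3.5e-09, edgeR). *BIRC3*, which encodes cIAP2, fell by 0.51 (adjusted p = 4.1e-07, edgeR), and *XIAP*, the direct inhibitor of caspases, rose by 0.30 (adjusted p = 0.017, edgeR) with OE replicate 2 inside the NC range.

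Of 22 genes that regulate the family, 21 were tested, of which 8 rose, 6 fell and 7 did neither, with a median of 0.04, and *TRIM17* was not analysed here. Both genes past the fold threshold rose. *G0S2*, whose protein binds BCL2 and also inhibits lipolysis, had an FPKM of 113.47 to 126.49 in NC and 285.47 to 300.85 in OE and rose by 1.26 (adjusted p = 6.1e-14, edgeR). *DDIT3*, which encodes the stress transcription factor CHOP, had an FPKM of 32.67 to 34.66 in NC and 67.36 to 74.32 in OE and rose by 1.08 (adjusted p = 3.1e-12, edgeR). *DDIT3* overlaps *MARS1*, which had up to 10061 counts, so its own counts are uncertain without the strand setting. *SFN*, the 14-3-3 protein of epithelial cells, fell by 0.42 (adjusted p = 1.8e-06, edgeR), and *BAG3*, a co-chaperone with anti-apoptotic activity, fell by 0.40 (adjusted p = 2.2e-06, edgeR). None of these lists was set against other genes by a test, and the share past the threshold in each direction in the whole table is that given above.

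**Figure D4:**
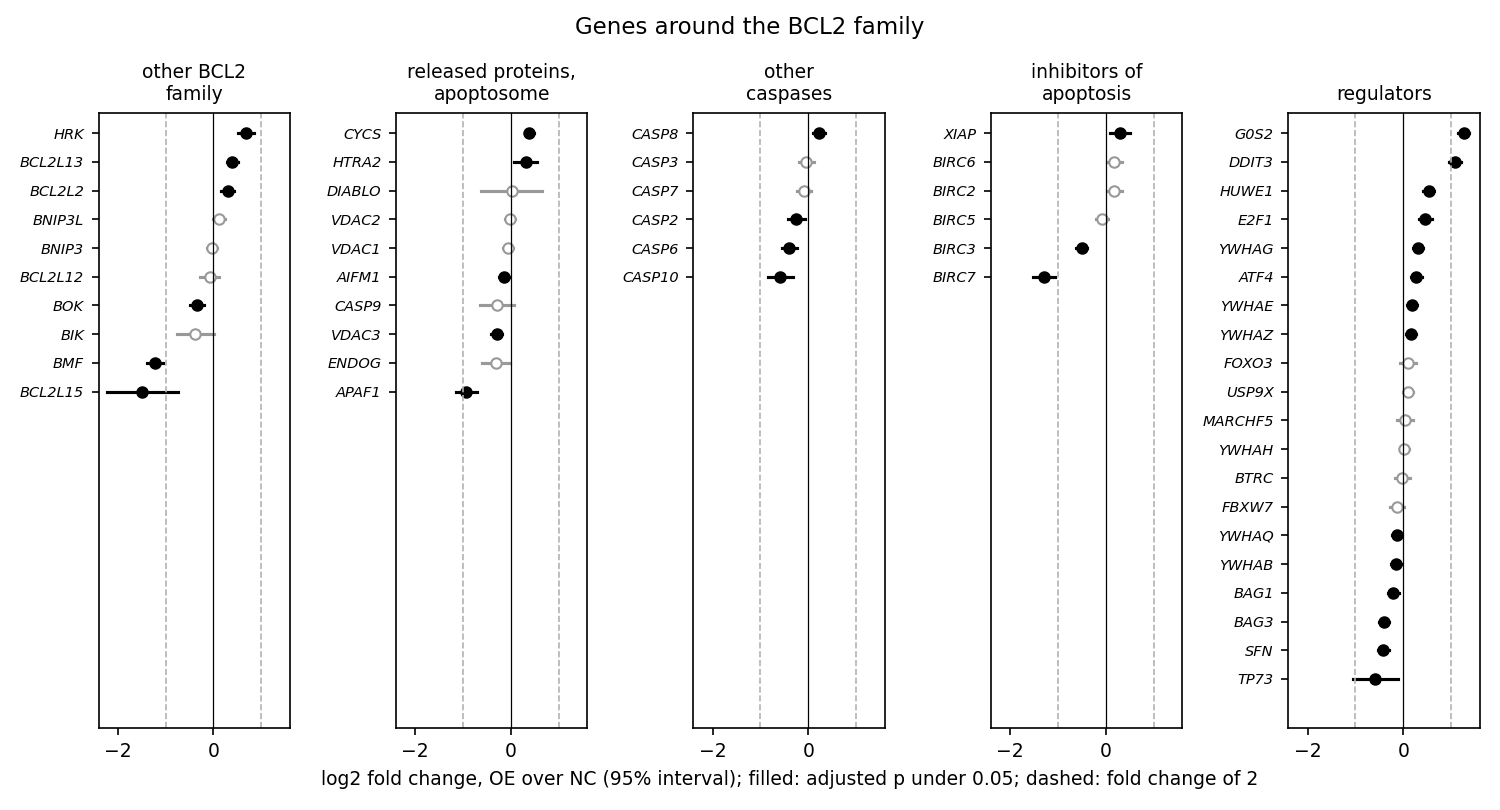
Log2 fold change of OE over NC with its 95% interval, fitted by edgeR, for the tested genes of 5 lists around the BCL2 family, of which 1 regulator is not drawn. Filled points are past an adjusted p of 0.05, and the dashed lines mark a fold change of 2, which *BMF*, *BCL2L15*, *BIRC7*, *G0S2* and *DDIT3* pass.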

How the data were processed

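RNA of 6 HK-2 samples, 3 NC and 3 OE, was read from both ends after stranded mRNA library preparation. The authors trimmed reads with FASTX-Toolkit, aligned them with HISAT2 to GRCh38 and counted, for each gene, the reads with a single position. The submitters' processing notes also list mm10. The deposited count table holds these counts unnormalized, and the deposited FPKM, scaled by the authors to transcript length and mapped fragments, is given to 2 decimals. The annotation, counting program and strand setting are not given in the sources used here. GENCODE release 44, which held 99.8% of the gene identifiers, gave coordinates and overlaps.

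Counts were tested with edgeR 4.0.16 in R 4.3.3 (filterByExpr, TMM, quasi-likelihood F test, Benjamini-Hochberg over 15878 genes). CPM was computed from the deposited counts with TMM-normalized library sizes. Calls needed an adjusted p under 0.05 and a change of over 2-fold either way, and the biological coefficient of variation was 6.30%. Standard errors were derived from the log2 fold change and its F statistic. DESeq2 1.42.0 and limma 3.58.1 on log2(FPKM + 1) and log2(FPKM + 0.1), for genes that reached an FPKM of 1 in 3 or more samples, were alternatives, with other normalizations and filters, the replicate number as a block and each sample left out. The fit was tested on simulated data. Replicates were checked not to be copies, since their counts differed by mean chi-square values of 4.83 to 11.0 per gene. The 10 genes and the lists around them were chosen with earlier results of these data known. Of each list, the 2 genes with the smallest adjusted p in each direction and every gene past the fold threshold were named. *DIABLO* and *BCL2L2* were named for the overlapping genes with high counts. *MIR4435-2HG*, *GPR137* and the genes named for binding the family were chosen after their values were seen. Protein sequences were not used here, and 1 gene of the regulator list is counted but not reported by name. Python 3.11.15 with matplotlib 3.10.9 was used for the plots.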

Additional observations from a re-analysis of the deposited data

How the results depend on the processing

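Under 15 alternatives, 6 of which leave out 1 sample, 0 of the 10 genes were called with the fold threshold. *BCL2L1*, *BAK1*, *BBC3*, *PMAIP1*, *BID* and *BAD* kept their direction and stayed past the adjusted p threshold in all of them, with log2 fold changes of 0.69 to 0.75 for *PMAIP1*, 0.45 to 0.51 for *BCL2L1* and −0.54 to −0.41 for *BID*. *BAX* was not past it in 1 alternative and ranged from 0.24 to 0.42. *MCL1* ranged from 0.00 to 0.12 and was never past the threshold (adjusted p 0.13 to 0.99 over the fits). The 2 genes lower at an adjusted p under 0.05 became 4 without OE replicate 3, with *BCL2* and *BCL2L11* added, and the range over samples left out was 2 to 4. With samples left out *BCL2L11* ranged from −0.31 to 0.0064. The genes of the release and apoptosome list past the threshold numbered 3 to 4 with samples left out, against 5. Other caspases past it numbered 2 by limma on log2(FPKM + 0.1), against 4. With edgeR 875 of 15878 tested genes were called, against 125 of 10766 by limma on log2(FPKM + 1) and 273 of 10766 on log2(FPKM + 0.1). Without a filter, limma on log2(FPKM + 1) called 123 of 30896. The sets of genes thus differed in size, and the cause of the differing counts was not tested. Upper quartile normalization gave 3463 genes higher and 4256 lower, against 3949 and 3766. The median over all genes was −0.13 by DESeq2 and −0.13 by edgeR without a filter, where 31369 genes enter, against −0.0032. Deviations of same-numbered samples correlated at −0.0032, −0.0663 and −0.0542, so no pairing by replicate number was seen. With 3 samples per group this cannot show whether same-numbered samples were handled together. A replicate block gave 877 genes called, with 5 of the 10 genes higher and 2 lower. Depth limits most the genes with the fewest counts, *BCL2L11* at 215 to 319 and *BAK1* at 270 to 512 per sample.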

Other observations

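Genes whose proteins bind the BCL2 family, and further genes of the family, are given as values, all but *BNIP3*, *BNIP3L* and *BCL2A1* having been listed after their values were seen. *BNIP1*, a SNARE protein of the endoplasmic reticulum that binds BCL2, had an FPKM of 4.16, 3.86 and 4.63 in NC and 6.70, 6.83 and 6.78 in OE, a log2 fold change of 0.66 (adjusted p = 1.5e-06, edgeR). The mitophagy receptors *BNIP3* and *BNIP3L*, which carry a BH3-like stretch, were at −0.04 (adjusted p = 0.57, edgeR) and 0.12 (adjusted p = 0.10, edgeR). *PNMA2* lies over *BNIP3L* on the other strand with up to 1698 counts, so the *BNIP3L* counts are uncertain. *BCLAF1*, a nuclear protein first found as a BCL2 partner, was higher by 0.29 (adjusted p = 0.00055, edgeR), *BNIP2* by 0.22 (adjusted p = 0.0047, edgeR) and *TMBIM6*, the BAX inhibitor of the endoplasmic reticulum, by 0.16 (adjusted p = 0.0073, edgeR). All 3 were higher in every OE sample than in any NC sample. *BAK1P1*, a pseudogene copy of *BAK1*, had at most 2 counts in any sample, and *BCL2A1* had an FPKM of 0.08 to 0.24.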
